A study of Homo sapiens with 12 samples.

Results

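The 8 genes described here encode secreted factors that cells release under stress, namely GDF15, the stanniocalcins STC1 and STC2, FGF21, INHBE, the adrenomedullin genes ADM and ADM2, and VEGFA. They are 8 of the 28278 gene symbols of a count table from human motor neuron cultures, and they were chosen by name with their response to cis-chlordane in these libraries already known. Their treated and control values are therefore given as a description with no test, while the comparisons of the sort fractions and of the receptors, relatives and processing enzymes of these factors are tested. The gene lists were also drawn up with earlier results of these libraries known. The p-values below are therefore not independent evidence that a gene or list responds or differs between the sort fractions.

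The motor neuron cultures were derived from WA09-Islet1-GFP, a wild-type human embryonic stem cell line in which GFP reports Islet1, a transcription factor of motor neurons. After 16 hours with cis-chlordane, an organochlorine pesticide, or with its solvent DMSO, the cells were sorted by FACS on GFP, so that each treatment has a GFP-positive and a GFP-negative group. The 4 groups hold 3 libraries each from 1 reporter line, and by the study's methods each replicate is a separate thaw of frozen cells. The sample labels give the dose as 10 µM, the study's methods give a higher one, and since every title opens with untreated, the treatment field decided the group. The GFP-negative cells are whatever in the culture lacked the reporter signal and not a defined cell type.

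GDF15, a distant member of the TGF-beta family, acts on the brainstem through GFRAL and its co-receptor RET and is known for reducing appetite. STC2 and STC1 are glycoproteins that bind and inhibit the pappalysins PAPPA and PAPPA2, proteases that release IGFs from their binding proteins. FGF21 signals through FGF receptors with the co-receptor KLB, INHBE encodes the subunit of activin E, and ADM and ADM2 are vasoactive peptides of the calcitonin family that bind CALCRL with a RAMP partner. VEGFA acts on the receptors KDR and FLT1 with the neuropilins NRP1 and NRP2. Several of these genes are known targets of the integrated stress response, in which ATF4 and CHOP raise transcription after phosphorylation of eIF2-alpha, and VEGFA and ADM are also known targets of the hypoxia-inducible factors.

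By the GENCODE release 44 annotation of hg38, all 8 are protein-coding genes. GDF15 lies at chr19:18374731-18389176 and FGF21 at chr19:48755524-48758333, both on the plus strand. STC2 lies at chr5:173314723-173328447 on the minus strand. INHBE lies at chr12:57452323-57459280, ADM at chr11:10305073-10307397, ADM2 at chr22:50481543-50486440 and VEGFA at chr6:43770184-43786487, all on the plus strand.

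Upstream sequences of 2 of the genes are shown because STC2 responded by different amounts in the sort fractions and FGF21 was detected after treatment alone. They come from RefSeq on GRCh38.p14, run 5′ to 3′ toward the transcript start, and leave out bases that GENCODE places in an exon. The STC2 stretch is chr5:173328448-173328664 on the minus strand and the FGF21 stretch is chr19:48755391-48755523 on the plus strand. Capitals mark the letters TGATGNAA on either strand, the C/EBP-ATF element through which ATF4 and CHOP are known to act.
STC2: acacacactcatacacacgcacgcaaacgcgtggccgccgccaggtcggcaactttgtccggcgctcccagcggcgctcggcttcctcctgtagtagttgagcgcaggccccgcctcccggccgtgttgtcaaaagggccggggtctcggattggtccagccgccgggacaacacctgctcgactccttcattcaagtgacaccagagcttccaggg
FGF21: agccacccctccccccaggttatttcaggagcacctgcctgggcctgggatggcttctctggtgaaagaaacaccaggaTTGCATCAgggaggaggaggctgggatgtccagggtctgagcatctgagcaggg

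The 250 bases upstream of the RefSeq start were searched on both strands in 5 of the 8 genes, GDF15, STC2, FGF21, ADM and ADM2. For GDF15 this window, chr19:18385908-18386157, lies inside the GENCODE span given above, and 9 of its bases lie outside GENCODE exons of the gene. The C/EBP-ATF letters occurred once, in FGF21, from 54 to 47 bases before its start and on the minus strand. Of 35116 promoters of the same length, 3.14% held them. The ER stress element, CCAAT and CCACG with 9 bases between them, was found in 0.074% of promoters. The ACGTG form of the hypoxia core was found in 18.5%, and other forms of it were not searched. Neither had a match in these 5 windows. The last letters of the ER stress element can overlap the first of the hypoxia core. An absent match says only that these letters are not in the window.

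Between 23414935 and 38347050 reads were counted per library, with a median of 31553596, and levels are given as CPM, counts scaled to library size by TMM. At this depth the floor of 3 counts corresponded to about 0.1 CPM in the control libraries. The GFP-positive label was checked against 6 motor neuron markers, ISL1, MNX1, CHAT, SLC18A3, SLC5A7 and LHX3, all of them at 1 CPM or more in control GFP-positive cells, where their summed level was 1166 to 1376 CPM. It was 281 to 429 CPM in treated GFP-positive cells, 192 to 215 CPM in control GFP-negative cells and 58.5 to 79.2 CPM in treated GFP-negative cells. LHX3, another transcription factor of motor neurons, did not follow the label, at 1.91 CPM in control GFP-positive and 4.44 CPM in control GFP-negative cells. MNX1 did not follow it after treatment, at 4.52 CPM in GFP-positive and 4.81 CPM in GFP-negative cells. In control GFP-positive cells most of the sum came from SLC18A3 and SLC5A7, at 791 and 327 CPM. In bulk libraries, fewer cells of a type and less RNA per cell cannot be told apart. A single library stood apart, since control GFP-negative replicate 3 held the leukocyte gene PTPRC at 28.3 CPM against 0 CPM in the other 2 libraries of its group, and the endothelial and blood cell gene PECAM1 at 18.2 CPM against 0.328 and 0.264 CPM. Over 4 immune markers the sum was 1.88 to 38.7 CPM in its group and 6.43 to 9.02 CPM in treated GFP-negative cells, and the microglial marker AIF1 was at 0 in all libraries. Where leaving it out changes a call, a list count or a list median described below, the value without it is given.

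Of the members 6, namely GDF15, STC2, INHBE, ADM, ADM2 and VEGFA, were higher after cis-chlordane in both sort fractions, and in each of them all 3 treated libraries lay above all 3 control libraries. Summed over the 8 genes, the level rose from 45.3 CPM ± 2.79 (SD, n = 3) to 729 CPM ± 92.8 (SD, n = 3) in GFP-positive cells and from 59.0 CPM ± 7.33 (SD, n = 3) to 720.4 CPM ± 64.6 (SD, n = 3) in GFP-negative cells. Of the 7 genes with enough counts to fit, 6 passed an adjusted p of 0.05 and a fold change of 2 upward in each fraction, against a background of 12.8% of all genes tested in GFP-positive and 8.59% in GFP-negative cells. Treated libraries lay wholly above control libraries in 26.9% and 24.0% of all genes tested. The members were chosen for this response, so nothing is read from these counts. STC1 did not pass, and FGF21 was too low to be fitted here.

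**Figure D1:**
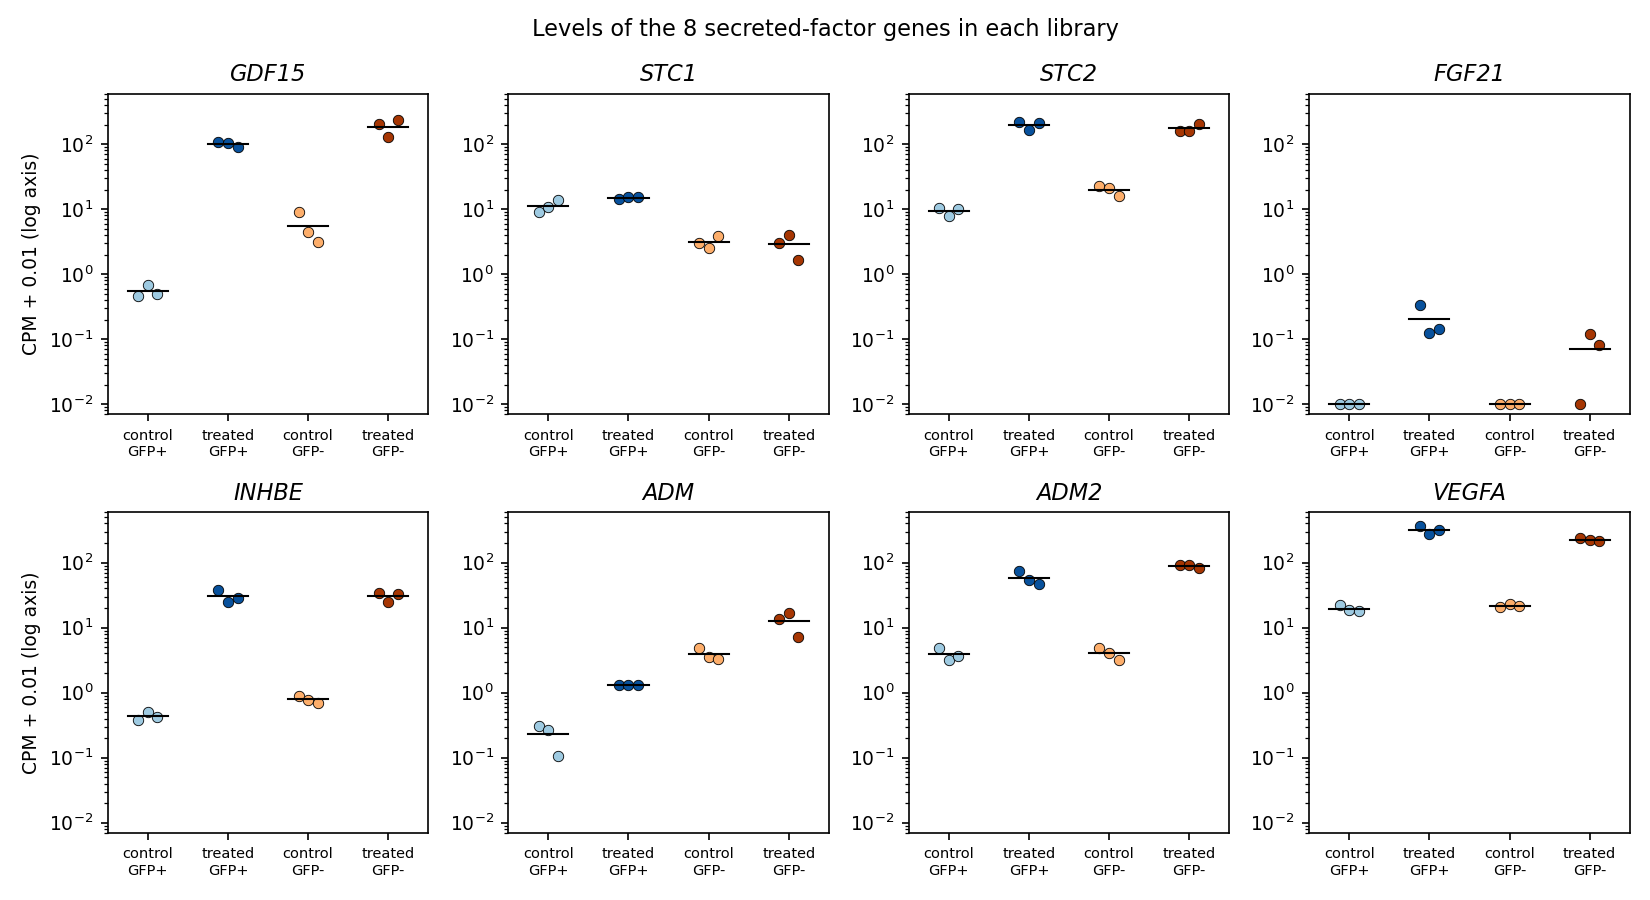
Level of each of the 8 genes in every library, as CPM plus 0.01 on a log axis, in control and treated GFP-positive (blue) and GFP-negative (orange and brown) cells. Points are the 3 libraries of a group and the line is their mean; the treated points sit above the control points in both fractions except for STC1 and FGF21 in GFP-negative cells, and FGF21 is at 0 in all 6 control libraries.

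GDF15 had the highest fold change of the 7 fitted genes in GFP-positive cells. In control GFP-positive cells the 3 libraries held 0.447, 0.666 and 0.48 CPM, from 12, 23 and 15 reads, and after treatment 108, 104 and 91.4 CPM. The log2 difference was 7.61 (SE 0.25), and GDF15 ranked 7th by fold change among 15333 genes tested. In GFP-negative cells the controls held 8.97, 4.40 and 3.15 CPM and the treated libraries 201, 127 and 231 CPM, a log2 difference of 5.05 (SE 0.41) that ranked 19th among 15513 genes. The 4 groups did not overlap with each other, and their order from low to high was control GFP-positive, control GFP-negative, treated GFP-positive and treated GFP-negative. Without control GFP-negative replicate 3, the lowest of its group, the log2 difference in GFP-negative cells was 4.78 (SE 0.37).

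INHBE, which is expressed mostly in liver in the adult, rose from below 1 CPM in every control library. Control GFP-positive libraries held 0.373, 0.492 and 0.416 CPM and treated ones 38.6, 24.99 and 28.5 CPM, a log2 difference of 6.21 (SE 0.28). Control GFP-negative libraries held 0.887, 0.763 and 0.679 CPM and treated ones 34.1, 24.7 and 33.3 CPM, a log2 difference of 5.27 (SE 0.25). Treated libraries of the 2 fractions overlapped in level, and the 2 control groups did not. The summed level of 3 hepatocyte markers was 0.32 to 0.463 CPM in control and 0.81 to 1.59 CPM in treated GFP-positive cells. In GFP-negative cells the sum was 0.878 to 2.00 CPM in control and 1.02 to 1.84 CPM in treated libraries.

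STC2 and STC1, the 2 stanniocalcins, behaved differently. STC2 stood at 10.2, 7.73 and 9.98 CPM in control and 222, 164 and 213 CPM in treated GFP-positive cells, a log2 difference of 4.49 (SE 0.20). In GFP-negative cells it stood at 22.5, 20.9 and 15.9 CPM in controls and 161, 159 and 202 CPM after treatment, a log2 difference of 3.12 (SE 0.20). Treated libraries of both fractions overlapped, and control GFP-positive cells were the lowest group.

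STC1 stood at 9.17, 10.9 and 13.7 CPM in control and 14.1, 15.2 and 15.3 CPM in treated GFP-positive cells. These libraries did not overlap, but the log2 difference was 0.47 (SE 0.20), a fitted fold of 1.38, and did not reach a fold change of 2. In GFP-negative cells STC1 stood at 3.02, 2.55 and 3.87 CPM in controls and 3.02, 3.998 and 1.63 CPM after treatment. These groups overlapped, and the log2 difference of -0.14 (SE 0.37) ranged from -0.45 to 0.13 when each library was left out in turn.

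FGF21, a hormone made mainly by the liver, had 0 reads in all 6 control libraries. It had 11, 4 and 5 reads in treated GFP-positive cells and 0, 3 and 2 reads in treated GFP-negative cells. With the control level set to the floor of 3 reads per library, treated GFP-positive cells were at least 1.96-fold higher. This bound rests on replicate 1, the library with 11 reads, and was 1.26-fold without it. Treated GFP-negative libraries lay at or below that floor, so no fold is given. FGF21 was too low to be fitted in any main comparison, so 7 of the 8 genes passed the filter on low counts. By DESeq2, run without that filter, all 8 were fitted in GFP-positive cells and 7 passed both thresholds upward. STC1, at a log2 difference of 0.44, did not, so FGF21 was among the 7, on at most 11 reads a library.

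The 2 adrenomedullin genes had fold changes of different size. ADM stood in GFP-positive cells at 0.298, 0.261 and 0.096 CPM in controls, from 8, 9 and 3 reads, and at 1.29, 1.29 and 1.30 CPM after treatment, a log2 difference of 2.62 (SE 0.48). In GFP-negative cells it stood at 4.93, 3.55 and 3.31 CPM in controls and 13.7, 16.8 and 7.22 CPM after treatment, a log2 difference of 1.66 (SE 0.34). Every GFP-negative library, treated or not, lay above every GFP-positive one.

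ADM2, also called intermedin, stood at 4.88, 3.16 and 3.62 CPM in control and 74.0, 54.9 and 46.6 CPM in treated GFP-positive cells, a log2 difference of 3.98 (SE 0.22). In GFP-negative cells it stood at 4.93, 4.08 and 3.19 CPM in controls and 91.3, 92.7 and 83.1 CPM after treatment, a log2 difference of 4.43 (SE 0.21). The controls of the 2 fractions overlapped and the treated libraries did not. The last exon of ADM2 overlaps an exon of SBF1 on the opposite strand, and the strand setting of the read counting is not given in the sources used here. SBF1 itself had a log2 difference of -0.19 (SE 0.16, adjusted p = 0.34, edgeR) in GFP-positive and 0.15 (SE 0.18, adjusted p = 0.541, edgeR) in GFP-negative cells.

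VEGFA, an angiogenic factor that also acts on neurons, was at similar levels in both control groups. Control GFP-positive libraries held 22.0, 18.9 and 18.1 CPM and treated ones 369, 278 and 320.0 CPM, a log2 difference of 4.10 (SE 0.18). Control GFP-negative libraries held 21.1, 22.8 and 21.6 CPM and treated ones 238, 224 and 212 CPM, a log2 difference of 3.34 (SE 0.15). The control groups overlapped, whereas treated GFP-positive libraries all lay above treated GFP-negative ones.

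Levels of different genes are ranked per transcript length. In CPM per kilobase of the canonical transcript, VEGFA ranked first in treated GFP-positive cells at 89.4, followed by GDF15 at 84.2 and STC2 at 47.0. In treated GFP-negative cells GDF15 ranked first at 155, followed by VEGFA at 62.3 and STC2 at 40.9. Per kilobase of all annotated exons, which are 14431 bases for VEGFA against 3609 in its canonical transcript, GDF15 ranked first and VEGFA came after STC2 in treated GFP-positive cells, so the place of VEGFA depends on the transcript assumed. FGF21 was the lowest of the 8 in all 4 groups by either length.

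The interaction of treatment and sort fraction tests whether the log2 response was larger in GFP-positive or in GFP-negative cells. Cells were sorted after treatment, and ISL1, which GFP reports, fell from 65.7 to 12.0 CPM in GFP-positive and from 2.57 to 0.548 CPM in GFP-negative cells. For any gene, a shift of cells between the sorts and a different response of the same cells therefore cannot be told apart. The log2 response was larger in GFP-positive cells for GDF15 and STC2, and not called for the other 5 fitted genes. The 2 calls among 7 genes stand against a background of 2.19% of 16226 genes, 0.968% with the larger response in GFP-positive cells. With libraries of the same treatment and number taken as the 2 sorts of a culture and paired as a block, 7.79% of genes and 3 of the 7 were called. The members were chosen from treated and control values of these same libraries, so these p-values are not independent evidence.

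For GDF15 the log2 responses differed by 2.47 (SE 0.48, adjusted p = 0.014, edgeR), or 5.55-fold. On the linear scale the order was the other way round, since GDF15 gained 100.5 CPM in GFP-positive and 181 CPM in GFP-negative cells. For STC2 the log2 responses differed by 1.29 (SE 0.25, adjusted p = 0.0149, edgeR), or 2.44-fold, and the gain was 191 CPM in GFP-positive and 154 CPM in GFP-negative cells. The GDF15 call held under 16 of 18 alternatives and was lost without control GFP-positive replicate 1 (adjusted p = 0.0563, edgeR) and without replicate 3 of that group (adjusted p = 0.0514, edgeR). The STC2 call held under 17 of 18 and was lost without treated GFP-negative replicate 1 (adjusted p = 0.0566, edgeR). Without control GFP-negative replicate 3, the differences were 2.74 (adjusted p = 0.00143, edgeR) for GDF15 and 1.42 (adjusted p = 0.00466, edgeR) for STC2.

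For VEGFA the log2 responses differed by 0.67 (SE 0.20, adjusted p = 0.0996, edgeR), which was not called. With the 2 sorts of each culture paired as a block, the same difference of 0.67 passed (adjusted p = 0.036, edgeR), and GDF15 and STC2 had adjusted p-values of 0.00193 and 0.00262. INHBE differed by 0.85 (95% interval 0.10 to 1.59, adjusted p = 0.233, edgeR) and ADM by 0.88 (95% interval -0.23 to 1.99, adjusted p = 0.429, edgeR). ADM2 was the only fitted gene with a lower estimate in GFP-positive cells, at -0.53 (95% interval -1.18 to 0.12, adjusted p = 0.41, edgeR). For STC1 the estimate was 0.53 (95% interval -0.30 to 1.36, adjusted p = 0.54, edgeR).

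**Figure D2:**
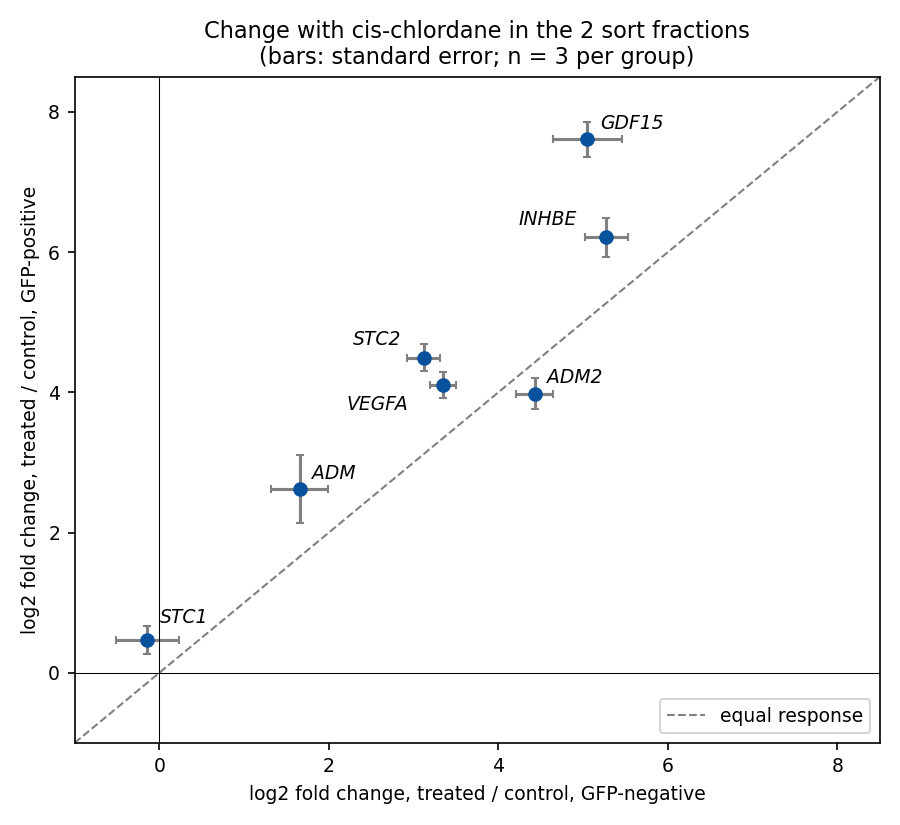
Log2 fold change of treated over control in GFP-positive cells (vertical axis) against GFP-negative cells (horizontal axis) for the 7 genes with enough counts to fit. Bars are standard errors (n = 3 per group) and the dashed line marks an equal response; GDF15 at 7.61 against 5.05 and STC2 at 4.49 against 3.12 lie above it, and ADM2 at 3.98 against 4.43 lies below it.

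GFP-positive and GFP-negative cells of the control cultures were compared next, to describe which fraction carried each factor without treatment. ADM, GDF15 and STC2 were lower in GFP-positive cells and STC1 was higher. These 4 of 7 fitted genes compare with a background of 22.8% of genes called, 7.47% higher and 15.3% lower. The members were chosen with values of these libraries known, so p-values between the sorts, here and in treated cultures, are not independent evidence. ADM had a log2 difference of -4.26 (SE 0.44, adjusted p = 4.58e-05, edgeR) and GDF15 one of -3.46 (SE 0.44, adjusted p = 0.000178, edgeR). In each culture GDF15 was higher in the GFP-negative sort, by 20.0-fold, 6.61-fold and 6.57-fold. STC2 differed by -1.19 (SE 0.21, adjusted p = 0.00135, edgeR). STC1, by contrast, was higher in GFP-positive cells by 1.73 (SE 0.27, adjusted p = 0.00058, edgeR) and in each culture by 3.04-fold, 4.29-fold and 3.54-fold.

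INHBE was lower in all 3 GFP-positive libraries, but its log2 difference of -0.96 (SE 0.40, adjusted p = 0.0821, edgeR) was not called. VEGFA at -0.26 (95% interval -0.63 to 0.12, adjusted p = 0.254, edgeR) and ADM2 at -0.17 (95% interval -0.80 to 0.46, adjusted p = 0.661, edgeR) overlapped between the fractions. Without control GFP-negative replicate 3 the 4 calls stood, with log2 differences of -4.35 for ADM, -3.71 for GDF15, -1.30 for STC2 and 1.93 for STC1.

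In the treated cultures 2 of the 7 genes were called, against a background of 23.7%, 10.0% higher and 13.7% lower. STC1 was higher in GFP-positive cells by 2.39 (SE 0.29, adjusted p = 3.08e-05, edgeR) and ADM lower by -3.26 (SE 0.32, adjusted p = 5.34e-06, edgeR). Another 3 genes passed the adjusted p but had a fold change under 2, namely GDF15 at -0.85 (SE 0.19, adjusted p = 0.00268, edgeR), ADM2 at -0.59 (SE 0.18, adjusted p = 0.0152, edgeR) and VEGFA at 0.54 (SE 0.15, adjusted p = 0.00819, edgeR). By culture, GDF15 was higher in the GFP-negative sort by 1.87-fold, 1.22-fold and 2.53-fold. STC2 at 0.22 (95% interval -0.12 to 0.57, adjusted p = 0.253, edgeR) and INHBE at 0.02 (95% interval -0.41 to 0.45, adjusted p = 0.935, edgeR) overlapped between the fractions.

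**Figure D3:**
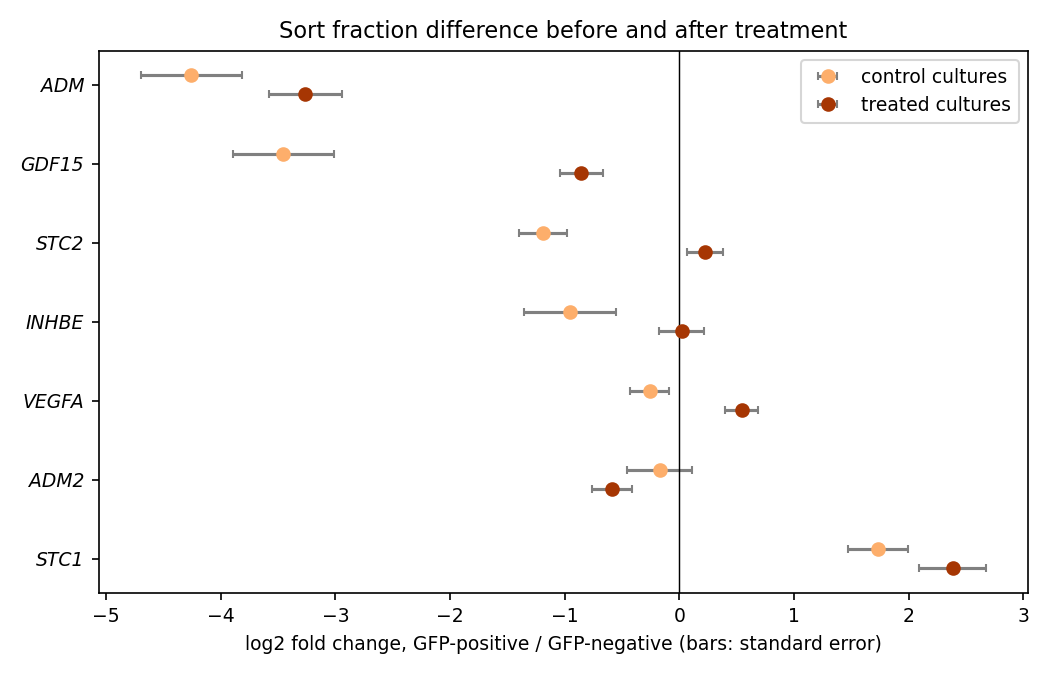
Log2 fold change of GFP-positive over GFP-negative cells in control cultures (light orange) and treated cultures (brown) for the 7 fitted genes. Bars are standard errors (n = 3 per group); GDF15 moves from -3.46 in control to -0.85 in treated cultures and STC2 from -1.19 to 0.22, while ADM stays below and STC1 above 0 in both.

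The genes closest to each factor across the 12 libraries were sought among 13830 genes with a mean of at least 1 CPM, by the root mean square difference of their centred log2 profiles, as a description over libraries that share the treatment. This distance is not scaled to the size of a response, and no cutoff for a close match was set. Nearest to GDF15 was LAMP3, a lysosomal membrane protein, at 0.62. LAMP3 stood at 0.155 and 34.9 CPM in control and treated GFP-positive and 0.880 and 43.2 CPM in control and treated GFP-negative cells. Its group means had the same order as those of GDF15. The profile of STC2 was closest to ATF3, a stress-induced transcription factor, at 0.30, and then to VEGFA at 0.39. VEGFA was closest to MTHFD2, an enzyme of mitochondrial folate metabolism, at 0.28. ADM2 was closest to TRIB3, a pseudokinase induced by ATF4, at 0.31. INHBE was closest to CALCB, a calcitonin gene-related peptide, at 0.43, and ADM to MRC2, a collagen receptor, at 0.45. STC1, set apart from the others, was closest to TMOD2, a neuronal tropomodulin, at 0.27, with ATP8A2 and PLCL1 next.

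The receptors and binding partners of the 8 factors changed in both directions. Of 24 listed genes 19 could be tested in each fraction, and 3 rose and 7 fell in GFP-positive cells, against a background of 24.0% called in either direction. In GFP-negative cells 3 rose and 7 fell as well, against a background of 18.3%. The list median was -0.62 in GFP-positive and -0.27 in GFP-negative cells on the log2 scale, beside 0.03 and -0.01 over all genes tested. The same counts were obtained in GFP-negative cells without control replicate 3, with a list median of -0.30.

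For GDF15, the receptor GFRAL was not detected beyond 1 read in any library. Its signalling partner RET, which is also the GDNF receptor of motor neurons, fell from 331 CPM ± 26.9 (SD, n = 3) to 97.4 CPM ± 27.9 (SD, n = 3) in GFP-positive cells, a log2 difference of -1.70 (SE 0.18, adjusted p = 7.7e-10, edgeR). It fell from 55.1 to 22.8 CPM in GFP-negative cells (log2 difference -1.29, adjusted p = 0.00218, edgeR). ISL1 moved with it, from 65.7 to 12.0 CPM in GFP-positive and from 2.57 to 0.548 CPM in GFP-negative cells, and its part in the RET result was not tested. The FGF21 co-receptor KLB and the related KL had at most 8 and 2 reads in any library. Of the FGF receptors, FGFR2 fell by 2.24 and FGFR3 by 1.18 on the log2 scale in GFP-positive cells, and FGFR2, FGFR3 and FGFR4 fell by 2.97, 1.59 and 1.32 in GFP-negative cells. FGFR1, at 158 CPM in control GFP-positive cells, was not called in either fraction (-0.55 and -0.41).

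CALCRL, the receptor subunit shared by both adrenomedullins, fell in GFP-positive cells from 7.47 to 2.48 CPM (log2 difference -1.52, SE 0.27, adjusted p = 1.22e-05, edgeR). In GFP-negative cells it stood at 1.87 and 2.48 CPM (0.39, SE 0.34, adjusted p = 0.417, edgeR). The interaction was called (SE 0.43, adjusted p = 0.0254, edgeR), with the lower response in GFP-positive cells, and it was called in 10 of 18 alternatives. RAMP1 fell in both fractions, by 1.72 and 1.17 on the log2 scale, RAMP2 was not called (-0.52 and -0.57) and RAMP3 had at most 6 reads. ACKR3, a scavenger receptor that takes up adrenomedullin, also fell in both, by 1.36 and 1.12 on the log2 scale.

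The VEGFA receptors diverged. KDR, its main signalling receptor, rose from 1.29 to 8.34 CPM in GFP-positive cells (log2 difference 2.76, SE 0.27, adjusted p = 1.57e-10, edgeR) and from 9.41 to 102 CPM in GFP-negative cells (3.41, SE 0.21, adjusted p = 1.12e-05, edgeR). Of 5 other endothelial markers, the summed level was 5.59 to 6.21 CPM in control and 5.55 to 7.05 CPM in treated GFP-positive cells, 9.92 to 28.4 CPM in control and 34.4 to 41.2 CPM in treated GFP-negative cells. In GFP-negative cells TIE1 carried this change, from 7.16 to 34.0 CPM, whereas CDH5 stood at 1.53 and 1.17 CPM, TEK at 0.844 and 0.174 CPM and ESAM at 1.29 and 1.85 CPM. PECAM1 stood at 0.328, 0.264 and 18.2 CPM in control GFP-negative replicates 1, 2 and 3 and averaged 0.618 CPM after treatment. The control maximum of 28.4 CPM includes its level in replicate 3. The part of endothelial cells in the KDR result was not tested. FLT1 stayed under 1 CPM and was not called, and FLT4, the receptor of VEGFC, fell by 2.16 on the log2 scale in GFP-negative cells and was not called in GFP-positive cells (-0.77).

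The neuropilins, co-receptors of VEGFA and of semaphorins, responded differently in the 2 fractions. NRP2 fell from 401 to 112 CPM in GFP-positive cells (log2 difference -1.77, SE 0.16, adjusted p = 3.89e-11, edgeR) and stood at 113 and 223 CPM in GFP-negative cells (0.97, SE 0.20, adjusted p = 0.0054, edgeR, under a fold change of 2). NRP1 stood at 99.3 and 52.5 CPM in GFP-positive cells (-0.85, SE 0.17, adjusted p = 7.82e-05, edgeR, under a fold change of 2) and rose from 32.0 to 83.1 CPM in GFP-negative cells (1.36, SE 0.16, adjusted p = 0.00031, edgeR). The interaction was -2.82 for NRP2 (adjusted p = 4.04e-05, edgeR) and -2.30 for NRP1 (adjusted p = 6.71e-05, edgeR), and both were called in 18 of 18 alternatives. CALCRL, NRP1 and NRP2 were the 3 receptor genes called in the unpaired interaction. With the sorts of a culture paired, FLT4 (1.30, adjusted p = 0.0486, edgeR) and PAPPA (0.78, adjusted p = 0.0415, edgeR) were called too.

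PAPPA2 and PAPPA, the proteases inhibited by stanniocalcins, rose in GFP-positive cells, and PAPPA2 did so in GFP-negative cells too. PAPPA2 rose from 1.10 to 18.4 CPM in GFP-positive cells (log2 difference 4.12, SE 0.25, adjusted p = 1.49e-15, edgeR) and from 0.381 to 11.2 CPM in GFP-negative cells (4.84, SE 0.31, adjusted p = 1.29e-05, edgeR). PAPPA rose from 16.8 to 47.2 CPM in GFP-positive cells (1.56, SE 0.19, adjusted p = 2.99e-08, edgeR), and in GFP-negative cells it stood at 35.8 and 59.3 CPM (0.71, SE 0.26, adjusted p = 0.0612, edgeR). The activin receptors ACVR1B, ACVR2A and ACVR2B were not called in either fraction, with log2 differences between -0.40 and 0.33, and ACVR1C had at most 5 reads.

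**Figure D4:**
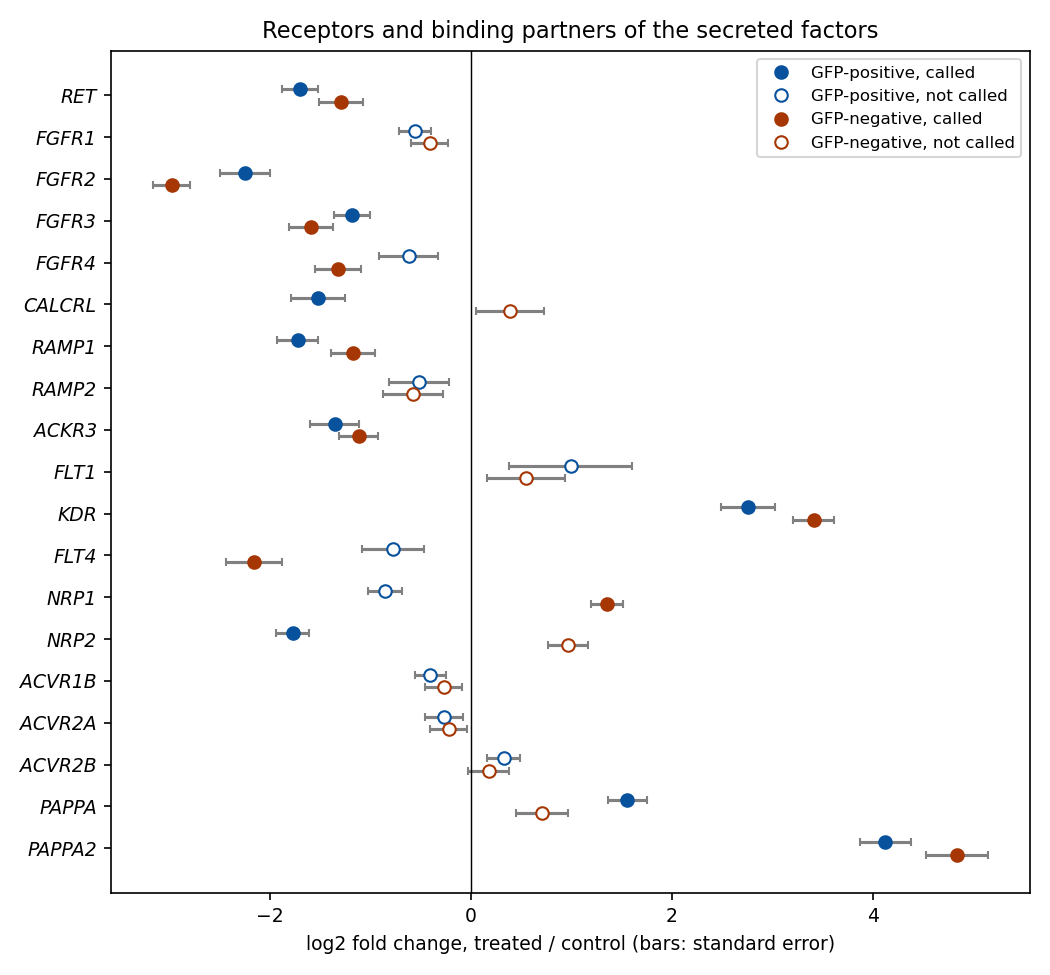
Log2 fold change of treated over control for the 19 receptors and binding partners with enough counts, in GFP-positive (blue) and GFP-negative (brown) cells. Filled points passed an adjusted p of 0.05 and a fold change of 2, open points did not, and bars are standard errors (n = 3 per group); NRP1 and NRP2 lie on opposite sides of 0 in the 2 fractions, and KDR and PAPPA2 lie to the right in both.

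The enzymes that process secreted precursors changed little as a group. In GFP-positive cells 2 of 11 tested rose, and in GFP-negative cells 1 of 12 tested rose. PCSK1, the prohormone convertase of neuroendocrine cells, rose from 3.05 to 35.5 CPM in GFP-positive cells (log2 difference 3.60, SE 0.23, adjusted p = 2.11e-15, edgeR) and from 3.28 to 20.6 CPM in GFP-negative cells (2.63, SE 0.27, adjusted p = 0.000133, edgeR). The interaction called PCSK1 with the sorts of a culture paired (0.88, adjusted p = 0.023, edgeR) and not without pairing (adjusted p = 0.183, edgeR). PAM, which amidates peptide hormones such as the adrenomedullins, rose by 1.05 on the log2 scale in GFP-positive cells (adjusted p = 2.09e-06, edgeR), close to the fold threshold, and was 0.95 in GFP-negative cells.

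Relatives of the 8 factors did not all move with them. Of 18 listed family members, 13 could be tested in GFP-positive cells, of which 3 rose and 5 fell, and 12 in GFP-negative cells, of which 3 rose and 5 fell, beside 24.0% and 18.3% of all genes called in either direction. The list median was -0.32 in GFP-positive and 0.03 in GFP-negative cells on the log2 scale, and without control GFP-negative replicate 3 the latter was -0.40, with 3 of 13 rising and 5 falling. The risers in both fractions were CALCA and CALCB, which encode calcitonin and the calcitonin gene-related peptides, and FGF19, an endocrine FGF like FGF21. CALCB went from 1.02 to 61.4 CPM in GFP-positive cells (log2 difference 5.96, SE 0.26, adjusted p = 2.43e-19, edgeR) and from 1.31 to 36.6 CPM in GFP-negative cells (4.77, SE 0.25, adjusted p = 7.73e-06, edgeR). CALCA went from 0.0493 CPM, with at most 4 reads a library, to 5.60 CPM in GFP-positive cells, and FGF19 from 0.225 to 5.69 CPM. PGF, the VEGF family member placental growth factor, fell by 2.34 and 1.98 on the log2 scale, and GDF11, a TGF-beta family member close to myostatin, fell by 1.96 and 1.78. No family member was called in the unpaired interaction by edgeR, and TGFB1 was called with the sorts of a culture paired (-0.73, adjusted p = 0.0409, edgeR).

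Genes of the integrated stress response and the unfolded protein response, the list to which the known regulators of GDF15, STC2, INHBE and ADM2 belong, were higher after treatment in 19 of 19 tested genes in both sort fractions, with NUPR1 too low to test. The share of all genes called higher was 12.8% and 8.59%, but the list was chosen with this response known, and its treated and control values are given as a description with no test. The list median was 2.69 in GFP-positive and 2.55 in GFP-negative cells on the log2 scale, beside 0.03 and -0.01 over all genes tested. Without control GFP-negative replicate 3 the list median in GFP-negative cells was 2.67. SLC7A11, the cystine transporter, rose from 0.817 to 39.0 CPM in GFP-positive cells (log2 difference 5.63, SE 0.25) and from 5.13 to 81.8 CPM in GFP-negative cells (3.98, SE 0.21). Like GDF15 and STC2 it was lower in control GFP-positive cells and had a larger log2 response there (interaction 1.57, adjusted p = 0.0118, edgeR, called in 17 of 18 alternatives). No other gene of the list was called in the unpaired interaction. With the sorts of a culture paired, ATF3 (0.84, adjusted p = 0.024, edgeR), TRIB3 (-1.14, adjusted p = 0.00638, edgeR) and PPP1R15A, the phosphatase subunit GADD34 (-0.64, adjusted p = 0.041, edgeR), were called as well. ATF3 rose by 4.54 and 3.64, and DDIT3, which encodes CHOP, rose by 3.62 and 3.05 on the log2 scale. TRIB3 rose by 3.48 in GFP-positive and 4.49 in GFP-negative cells.

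Genes of the hypoxia-inducible factors and their targets changed in both directions. In GFP-positive cells 3 of 15 rose and 1 fell, beside 24.0% of all genes called, and in GFP-negative cells 4 of 16 rose and 1 fell, beside 18.3%. The list medians were 0.09 and 0.41 on the log2 scale. Without control GFP-negative replicate 3, in GFP-negative cells 4 of 16 rose and 2 fell, with a median of 0.63. The median in GFP-positive cells was -0.0028 by DESeq2, and 5 of the 15 rose when library size alone was used for scaling. NDRG1, a hypoxia- and stress-induced gene, rose by 1.53 and 1.96. EPAS1, which encodes HIF-2-alpha, rose from 0.378 to 4.52 CPM in GFP-negative cells, by 3.56 on the log2 scale. In GFP-positive cells EPAS1 rose by 2.88, from 0.0655 to 0.478 CPM, on at most 20 reads a library. P4HA1, a collagen prolyl hydroxylase, rose by 1.28 in GFP-positive cells and the mitophagy receptor BNIP3 from 22.8 to 65.5 CPM in GFP-negative cells, whereas the glycolytic enzyme LDHA was not called in GFP-positive cells (-0.76) and fell by 1.08 in GFP-negative cells on the log2 scale. PFKFB4 fell by 1.32 in GFP-positive cells. Of 15 p53 targets, GDF15 being known as another, 5 rose and 2 fell in GFP-positive cells and 6 rose and 0 fell in GFP-negative cells, beside 24.0% and 18.3% of all genes called in either direction. TNFRSF10B, the death receptor that CHOP also induces, rose by 3.15 and 2.36, BBC3 by 1.37 and 1.73, CDKN1A by 1.76 and 1.12 and RRM2B by 1.55 and 1.57, while TP53I3 fell by 1.36 and PHLDA3 by 1.11 in GFP-positive cells. Without control GFP-negative replicate 3, CDKN1A in GFP-negative cells was at 0.97, under a fold change of 2, and 5 of 15 rose.

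**Figure D5:**
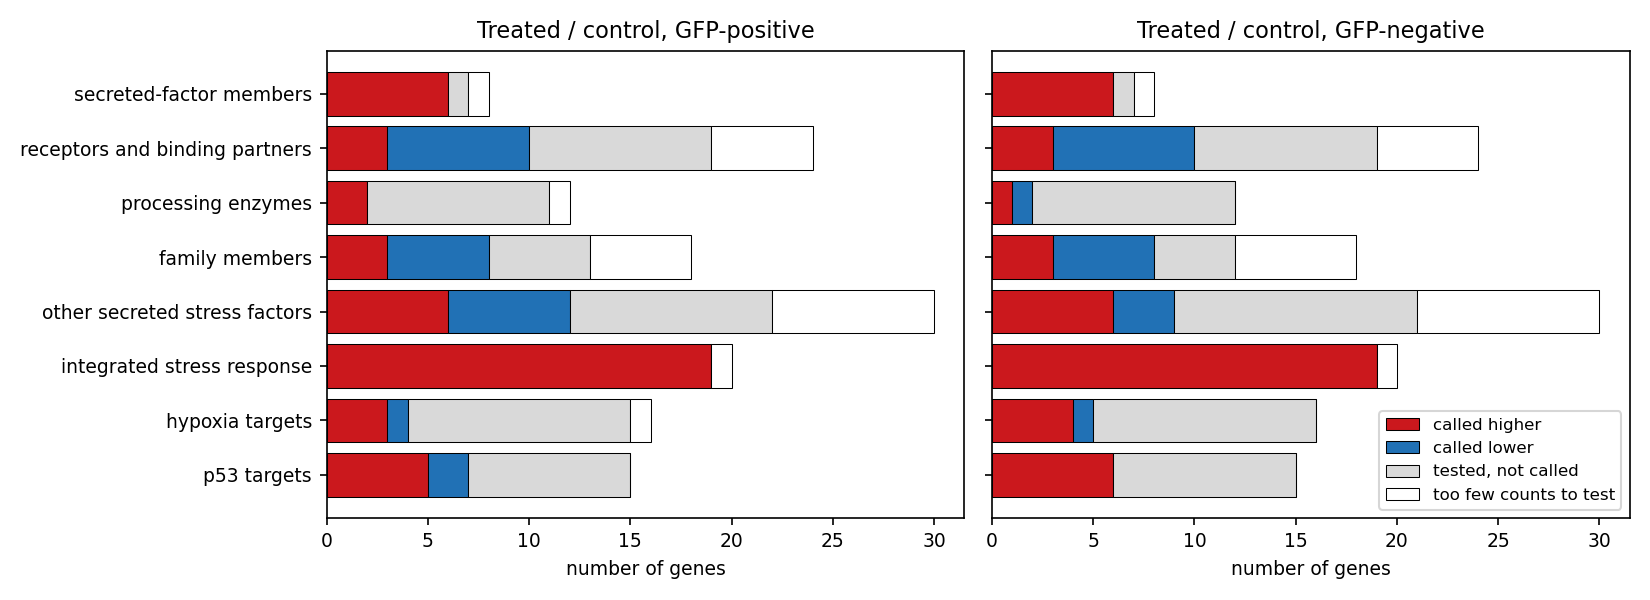
Number of genes called higher (red), called lower (blue), tested but not called (grey) and too low to test (white) in each gene list, for treated over control in GFP-positive (left) and GFP-negative (right) cells. All 19 tested genes of the integrated stress response are red in both fractions, while receptors and family members hold more blue than red.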

How the data were processed

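RNA from 12 sorted samples was sequenced from stranded mRNA libraries. The authors mapped reads to hg38 with HISAT2 and deposited raw counts per gene, for which the submitters' processing notes name featureCounts; versions and the strand setting are not given in the sources used here. Of the per-sample columns, 0 were left unused. Groups and replicate numbers came from the sample labels.

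The 8 genes and the gene lists were chosen with earlier results of these data known, so treated against control values of the 8 genes and of the integrated stress response list carry no p-value. Counts were scaled by TMM and tested with edgeR 4.0.16 in R 4.3.3 (quasi-likelihood F-test, two-sided, Benjamini-Hochberg adjustment over all genes tested), on the 6 libraries of a comparison, or all 12 for the interaction. Low genes were removed by filterByExpr (min.count 10, min.total.count 15). A call needs a fold change of 2 or more beside an adjusted p below 0.05, and no minimum fold for the interaction. Log2 differences are edgeR's fitted values, and p-values measure the spread between these libraries. Floors of 3 counts cover counting error only.

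Genes named were the 8 members, all receptors listed, and from each other list up to 5 called genes of at least 1 CPM on average with the largest change, up to 3 per direction; some that met this rule are not reported here. Likeness used log2(CPM + 0.1) profiles centred on their mean.

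GFP-positive and GFP-negative libraries of the same treatment and number were taken as sorts of a culture, from their labels. Over 16226 genes the correlation of their residuals was 0.38, 0.12 and 0.33 for the controls, and 0.20, 0.24 and 0.48 after treatment. Libraries of different treatment that share a number had correlations from -0.20 to 0.30, so these values alone do not establish the pairing. Alternatives were DESeq2 1.42.0, RLE scaling, library size alone, other filters, a replicate block, 1 fit of all libraries and each library left out. The fits were tested on simulated counts. Positions came from GENCODE release 44, which held 25763 of the 28278 symbols, and upstream sequences from RefSeq. Figures were drawn with matplotlib 3.10.9.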

Additional observations from a re-analysis of the deposited data

Results flagged for a closer look

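The response of GDF15 to cis-chlordane differed between the sort fractions in the interaction test, by 2.47 on the log2 scale (SE 0.48, adjusted p = 0.014, edgeR), with the larger log2 response in GFP-positive cells. The response of STC2 differed in the same direction by 1.29 (SE 0.25, adjusted p = 0.0149, edgeR). Both genes were lower in control GFP-positive than in control GFP-negative cells, and the gain in CPM was larger in GFP-negative cells for GDF15 and larger in GFP-positive cells for STC2. The genes were chosen from treated and control values of these same libraries, so these p-values are not independent evidence of a difference. Since sorting followed treatment, a shift of cells between the sorts cannot be told apart from a different response.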

How the results depend on the processing

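The 6 members that were higher with treatment stayed past both thresholds in both fractions under every alternative that could fit them, and so did the 4 calls between the sorts of control cultures and the STC1 and ADM calls of treated cultures. With at least 10 counts required in every library, ADM could not be fitted in GFP-positive cells or between the control sorts. The interaction was the least stable comparison. It called 355 genes, against 798 by DESeq2, 1264 with the sorts of a culture paired as a replicate block, and 141 to 414 when each library was left out. Leaving out each library changed the other counts less, to 3335 to 4016 of 3675 genes for treatment in GFP-positive cells, 2167 to 3260 of 2844 in GFP-negative cells, 3136 to 4110 of 3506 between control sorts and 3420 to 3796 of 3658 between treated sorts. VEGFA was called in the interaction by DESeq2 (adjusted p = 0.0138), with scaling by library size alone (0.041) and with at least 10 counts in every library (0.0371). GDF15 in treated cultures reached a fold change of 2 without treated GFP-negative replicate 2 (-1.06). INHBE, close to 0 between the treated sorts, changed sign to -0.0021 with RLE size factors, -0.0028 in 1 fit of all 12 libraries, -0.10 without treated GFP-negative replicate 2 and -0.20 without treated GFP-positive replicate 1, within a range of -0.20 to 0.12 when each library was left out. The cause was not tested.

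Library size alone shifted the median log2 difference of all genes from 0.03 to 0.14 for treatment in GFP-positive cells, from 0.05 to 0.22 between treated sorts and from -0.05 to 0.20 in the interaction. With it, 2230 genes were higher and 1770 lower between treated sorts, against 1541 and 2117, and 266 and 84 in the interaction, against 157 and 198. With at least 10 counts in every library the interaction split was 233 and 105. The replicate block, used between treated and control cultures that only share a number, gave 3652 and 2694 calls, and apart from VEGFA it changed no call of a member. Depth limits FGF21 and the controls of ADM, INHBE and GDF15 in GFP-positive cells, which rest on at most 23 reads a library.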

Other observations

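Other secreted factors that respond to stress split in direction. In GFP-positive cells 6 of 22 rose and 6 fell, and in GFP-negative cells 6 of 21 rose and 3 fell, beside 24.0% and 18.3% of all genes called in either direction. SPP1, which encodes osteopontin, rose from 8.87 to 154 CPM in GFP-positive cells (log2 difference 4.19, adjusted p = 7.24e-19, edgeR) and from 77.3 to 1761 CPM in GFP-negative cells (4.49, adjusted p = 4.25e-06, edgeR). NRG1, a growth factor of the neuromuscular junction, fell by 1.57 and 1.22 on the log2 scale. VGF, a neuropeptide precursor, went from 550.1 to 2735 CPM in GFP-negative cells (2.29, adjusted p = 3.85e-05, edgeR) and stood at 1239 and 2078 CPM in GFP-positive cells (0.81), with an interaction of -1.57 (adjusted p = 0.00431, edgeR). GDNF, the ligand that signals through RET, was named after its value was seen as the other gene of the list called in the interaction (-4.68, adjusted p = 0.0119, edgeR). That call held in 14 of 17 alternatives. GDNF fell from 1.83 to 0.151 CPM in GFP-positive cells (-3.50, adjusted p = 1.22e-06, edgeR). In GFP-negative cells it stood at 0.169 and 0.386 CPM, with at most 11 reads a library, and was too low to test. Without control GFP-negative replicate 3, in GFP-negative cells 8 of 24 of these secreted factors rose and 4 fell.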
